A study of Mus musculus with 2 samples.

Results

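The regions described are 795 of the 5910 nuclear peaks (13.5%, Wilson 95% interval 12.6 to 14.3) of a Notch1 chromatin immunoprecipitation sequencing (ChIP-seq) experiment in mouse gamma delta T cells. They are intergenic: a peak was taken if it overlapped no protein-coding gene body of GENCODE release M21 and if its nearest edge lay more than 1 kb and at most 25 kb from the nearest start site of any transcript of a protein-coding gene. The ChIP library came from thymic gamma delta T cells taken directly from C57BL/6 animals, wild type in genotype and aged 0 to 3 days after birth, and was made with the rabbit monoclonal Notch1 antibody D1E11. The input library came from the same kind of cells of the same strain, genotype, tissue and age, was made with no antibody and is not analysed here. The labels do not say how many animals were pooled. With 1 ChIP library there was no replicate, so no test between samples was possible, and every interval below covers counting error only.

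Notch1 is a receptor at the cell surface that is cut when it meets a ligand of the Delta or Jagged family on a neighbouring cell. The freed intracellular domain, the form that the stated design sought on chromatin, enters the nucleus and acts through RBPJ, a DNA-binding protein that recognises the core TGGGAA, together with coactivators of the Mastermind family. In T cell leukaemia lines and thymocytes many such sites are known at enhancers away from promoters, often beside binding sites of RUNX and ETS proteins.

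Of the other nuclear peaks, 720 were intergenic at more than 25 and up to 100 kb from a start site, 1015 were intergenic farther away, 1173 lay within 1 kb of a start site and 2207 lay inside a gene body. Each peak carries a score given by the authors' peak caller, whose scale is not stated. It is used here only to describe and rank peaks of the list. The read depth is unknown. At the lower limit of distance, the peaks beside Kpna6 (996 bp, score 846) and Vars (999 bp, 650) fell just outside, and those beside Iqgap2 (1003 bp, 624) and Tcp11 (1006 bp, 816) just inside. At the upper limit, the peaks beside Scn11a (24781 bp, 672) and Ccdc60 (24833 bp, 1112) were taken, and those beside Mitf (25080 bp, 674) and Gng11 (25116 bp, 664) were not.

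The stretches below, 150 bases each from the forward strand of mm10 (GRCm38), show what lay under intergenic peaks beside genes of T cell function and beside antigen receptor loci. They were read from the RefSeq genome sequence by coordinate. Capitals mark the RBPJ core (TGGGAA, or TTCCCA on the other strand) and the RUNX motif (TGTGGTT, or AACCACA). The Fasl stretch holds both, and the Il17a stretch holds the RUNX motif only. A match of letters is a description and does not show that a factor was bound. They are named for the nearest protein-coding gene, except the stretch in the Trb locus.
Fasl (chr1:161766665-161766814): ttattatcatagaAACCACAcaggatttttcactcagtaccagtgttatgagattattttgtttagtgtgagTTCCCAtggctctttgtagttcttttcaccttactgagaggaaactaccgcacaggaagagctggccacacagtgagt
Zfp36l1 (chr12:80115320-80115469): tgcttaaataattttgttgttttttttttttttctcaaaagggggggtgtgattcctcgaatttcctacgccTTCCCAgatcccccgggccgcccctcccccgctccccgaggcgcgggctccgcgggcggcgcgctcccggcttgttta
Socs1 (chr16:10781922-10782071): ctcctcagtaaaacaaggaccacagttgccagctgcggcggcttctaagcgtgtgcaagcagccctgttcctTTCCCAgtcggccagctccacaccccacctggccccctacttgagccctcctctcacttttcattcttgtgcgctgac
Dll4 (chr2:119323261-119323410): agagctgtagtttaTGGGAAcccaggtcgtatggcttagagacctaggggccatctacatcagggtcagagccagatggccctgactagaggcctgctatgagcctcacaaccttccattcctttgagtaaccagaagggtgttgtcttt
Trb locus (chr6:41541527-41541676): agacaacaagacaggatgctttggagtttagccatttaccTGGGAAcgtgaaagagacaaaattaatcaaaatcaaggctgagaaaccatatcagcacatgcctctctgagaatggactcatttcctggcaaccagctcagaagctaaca
Dad1 (chr14:54231498-54231647): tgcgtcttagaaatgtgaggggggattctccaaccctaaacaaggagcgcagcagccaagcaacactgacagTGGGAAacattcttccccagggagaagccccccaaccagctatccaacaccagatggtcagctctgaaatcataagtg
Il17a (chr1:20740612-20740761): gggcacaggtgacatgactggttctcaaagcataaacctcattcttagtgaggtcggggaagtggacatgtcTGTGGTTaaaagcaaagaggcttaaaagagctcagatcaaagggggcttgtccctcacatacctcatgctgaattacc

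The 12 intergenic peaks of highest score scored between 2561 and 3139. The highest, 3139, belonged to a peak of only 162 bp that lay 3.39 kb from Olfr1274-ps, an olfactory receptor pseudogene carried among the protein-coding genes of the annotation. Of its bases 52.5% were soft-masked as repeats, and 45.0% of its 32-base strings occurred elsewhere in the genome. The next 8 all scored exactly 3100, a value that 36 nuclear peaks shared, so they could not be ranked among themselves. They lay nearest to Fasl, Zfp36l1, Zfp36, Ifngr2, Frmd8, Ly6c2, Rpp21 and Gm10718. Hook2 (2804), Gm10800 (2727) and Ptar1 (2561) completed the 12 of highest score.

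Fasl encodes the ligand that triggers death in cells bearing the receptor Fas. Its peak at score 3100 spanned 1242 bp on chromosome 1 from 161766039 to 161767280, 21.1 kb downstream of a start site and beyond the end of the gene. A second peak, with a score of 973, began 3 bp after it. The last scored 603 and lay upstream, 6.89 kb from a start site. The highest score of the 3 thus lay past the 3' end of the gene.

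Zfp36l1 and Zfp36, which encode related RNA-binding proteins that speed the decay of messenger RNA with AU-rich elements, carried peaks at 3100 close to their starts. The Zfp36l1 peak spanned chromosome 12 from 80114327 to 80115660, began 1.31 kb upstream and held 2 RBPJ cores. A further peak at 2.82 kb scored 612. Zfp36 had 4 peaks between 1.37 and 3.53 kb upstream, with scores of 3100, 1823, 1175 and 529, and all overlapped the antisense gene Gm44710. Zfp36l2, of the same family, had 3 peaks between 5.73 and 7.36 kb downstream, with scores of 1555, 709 and 656. The family thus held 9 intergenic peaks, upstream of the start at Zfp36 and Zfp36l1 and downstream at Zfp36l2. A further nuclear peak at Zfp36, 2.82 to 3.56 kb downstream of the start with a score of 1680, did not meet the intergenic rule.

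Both genes of the interferon-gamma receptor had a group of 4 intergenic peaks. The subunits are Ifngr1, which binds the cytokine, and Ifngr2, which is needed to pass the signal on. At Ifngr2 the group lay 12.2 to 14.0 kb upstream, with scores of 3100, 1652, 873 and 661. The strongest spanned chromosome 16 from 91533594 to 91534314 and held 3 RUNX motifs and 0 RBPJ cores. At Ifngr1 3 peaks lay 13.1 to 14.4 kb upstream, with scores of 1928, 537 and 463, and the other lay 5.88 kb upstream with a score of 452. The strongest Ifngr1 peak held 2 RUNX motifs and 0 cores, and the other 3 held 1 core each. At both genes the highest score thus belonged to a peak with RUNX motifs and no RBPJ core. That peak was also the widest of the 4 at each gene, and a wide peak has more bases in which a motif can fall.

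**Figure D1:**
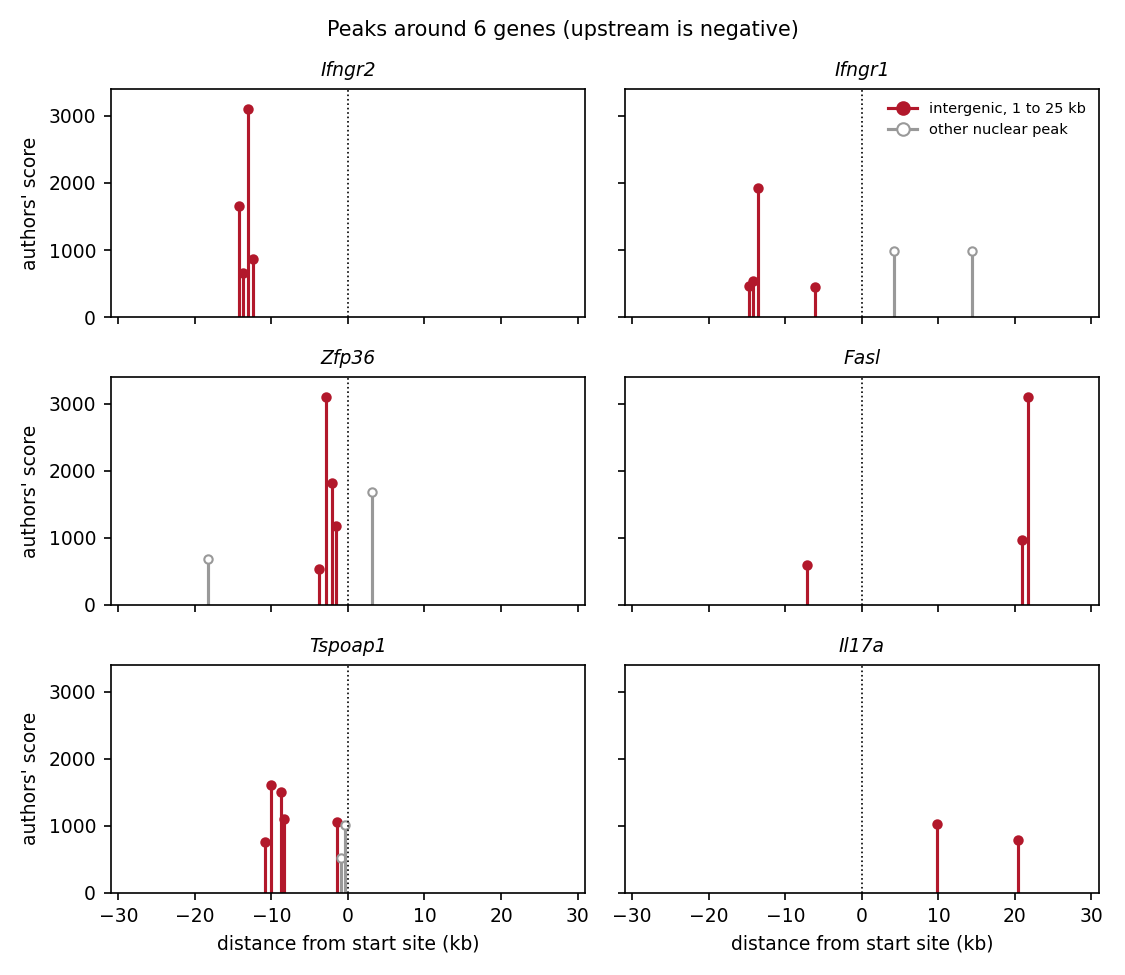
Position of the nuclear peaks within 30 kb of Ifngr2, Ifngr1, Zfp36, Fasl, Tspoap1 and Il17a, with distance in kb from the start site nearest to the gene's highest intergenic peak on the horizontal axis (upstream negative) and the authors' score on the vertical axis. Filled red points are the intergenic peaks described here and open grey points are other nuclear peaks; at Ifngr2 all 4 peaks lie upstream, and at Fasl the peak at 3100 lies downstream.

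Other peaks at 3100 lay near noncoding or repeated sequence. The peak assigned to Frmd8, a gene 17.6 kb away, spanned chromosome 19 from 5845002 to 5846059 and covered the start of Neat1, the long noncoding RNA that builds nuclear paraspeckles. The Gm10718 peak on chromosome 9 from 3021990 to 3022519 was 92.5% soft-masked, and 91.8% of its 32-base strings were repeated in the assembly. The Ly6c2 peak, 1707 bp wide and 24.6 kb from the start, was 57.1% soft-masked. Of the 12 peaks of highest score, those at Olfr1274-ps, Gm10718 and Gm10800 had the largest repeated shares, with 52.4% of strings at Gm10800. How reads from repeated sequence were placed is not stated.

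The 795 peaks lay beside 699 different nearest genes, 3.19% of the 21938 protein-coding genes. Of those genes 71 had at least 2 of the peaks and 19 had at least 3. Tspoap1 had the most, with 5. Its peaks scored 1603, 1506, 1098, 1053 and 759, and 4 of them formed a group 8.19 to 10.6 kb upstream. They also lay 1.52 to 5.61 kb from Mir142hg, the host gene of the blood cell microRNA miR-142, which is a noncoding gene and so was not used to assign peaks. Where peaks at most 1 kb apart were joined, 749 regions remained, and 34 of them held 80 of the peaks.

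Genes induced when lymphocytes are stimulated were among those with several peaks. This group was singled out after its values were seen. Nr4a3, which encodes an orphan nuclear receptor, had peaks at 1.22 and 1.84 kb upstream with scores of 1499 and 1456. Its relative Nr4a1 had peaks with scores of 1330, 2.62 kb downstream, and 634, 13.2 kb upstream. Fosb, which encodes a subunit of AP-1, had 3 peaks with scores of 1252, 827 and 629, and Fos, another subunit, had 2 with scores of 746 and 689. Egr1, which encodes a zinc finger factor of the early response, had 2 peaks 3.30 and 3.72 kb upstream, with scores of 945 and 524 and 2 RBPJ cores in each. No test of this group was made.

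Known Notch targets were beside few of the strongest peaks. Of 33 matched genes on a list of Notch targets, 4 (12.1%, 4.82 to 27.3) were the nearest gene of an intergenic peak, against 3.19% of all protein-coding genes. The peaks scored 689 at Il7r (the interleukin-7 receptor alpha chain), 671 at Ccr7 (a chemokine receptor), 544 at Cdkn1a (a cell cycle inhibitor) and 464 at Il2ra (the interleukin-2 receptor alpha chain). Their median was 607, against 714 for all 795 intergenic peaks. The peaks at Il7r and Cdkn1a held 1 RBPJ core each, and those at Ccr7 and Il2ra held 0. Hes1 and Hes5, the classical targets, were nearest to no intergenic peak. However, 6 of the 33 genes, Hes1 among them, had a peak within 1 kb of a start site, against 5.16% of all protein-coding genes. With little repeat sequence (under 20% of bases masked, no repeated 32-base string) 1 gene of the list was still a nearest gene, and at or above the median score of nuclear peaks 0 were. These filters kept 379 and 393 of the 795 peaks, and the share of all genes under them was not computed.

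Of 39 genes of the Notch pathway itself, 3 (7.69%, 2.65 to 20.3) were a nearest gene, against 3.19% of all genes. Lfng, a glycosyltransferase that modifies Notch, had peaks 10 and 10.7 kb upstream with scores of 1224 and 643 and no core in either. Adam10, a protease that makes the first cut in the activated receptor, had a peak with a score of 872, and the ligand gene Dll4 had 1 with a score of 834. Of these 4 peaks, the Dll4 peak was the 1 that held a core, printed above.

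Of 34 genes of the interferon-gamma program of gamma delta T cells, 11 (32.4%, 19.1 to 49.2) were a nearest gene, against 3.19% of all genes. Their 17 peaks had a median score of 702, against 714 for all intergenic peaks. After Fasl, the highest were at the chemokine gene Ccl5 (1677) and at Nr4a1 and Egr1. The perforin gene Prf1 followed with 805 and Tnfrsf18, a costimulatory receptor gene, with 3 peaks of 764, 745 and 681. Tbx21, the gene of T-bet, a transcription factor of this program, had a peak 15.2 kb upstream with a score of 701 and also had a peak within 1 kb of a start site. The RBPJ core was present in 8 of the 17 peaks, beside 30.2% of all 795 intergenic peaks and 29.4% of other peaks.

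Of 32 genes of the interleukin-17 program, 4 (12.5%, 4.97 to 28.1) were a nearest gene, against the same 3.19%. The scavenger receptor gene Cd163l1 had the highest peak of the list, with a score of 1593 at 2.21 kb upstream, and it held 0 RBPJ cores. The cytokine gene Il17a had 2 peaks, both downstream of the gene. The nearer lay 9.50 kb from the start on chromosome 1 from 20740404 to 20740967, scored 1022, had 0% soft-masked bases and held 1 RUNX motif and 0 cores. The farther lay 20.2 kb away and scored 781. Il7r and Etv5 (638), a gene of an ETS factor, were the others, and Il17f, Sox13 and Maf were nearest to no intergenic peak. Il17f, however, had a peak within 1 kb of a start site, and Sox13 and Maf did not.

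Cytokine receptors and NF-kB signalling had 11 of 37 genes (29.7%, 17.5 to 45.8) as nearest genes, against 3.19% of all genes. Beside the 2 interferon-gamma receptor genes these included the interleukin-21 receptor gene Il21r (1128), the signalling inhibitor gene Socs1 (998.7) and the type I interferon receptor gene Ifnar1 (959). The inhibitors Nfkbia (638) and Tnfaip3 (650) and the subunit Rel (674) represented NF-kB. The 18 peaks of this list had a median score of 667, against 714 for all intergenic peaks, and 8 of them held the RBPJ core. Homing and egress receptors had 6 of 24 (25%, 12 to 44.9), against 3.19% of all genes, and 0 of their 6 peaks held the RBPJ core, beside 30.2% of all intergenic peaks. They were Cxcr4 (1193, with 2 RUNX motifs), Cd69 (1112, with 1), Selplg (799), Ccr7, Itgal (671) and S1pr1 (670).

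Among T lineage regulators 5 of 38 genes (13.2%, 5.75 to 27.3) were a nearest gene, against 3.19% of all genes. They were Zfp36l1, Zfp36l2, Tox, which encodes a nuclear factor of T cell development, Tcf3, which encodes E proteins, and Id2, which encodes an inhibitor of them. Tox had 3 peaks 14.1 to 18.0 kb downstream, with scores of 1579, 667 and 636, and Tcf3 (702) and Id2 (657) had 1 each. T cell receptor signalling had 1 of 36 (2.78%, 0.492 to 14.2), namely the adaptor gene Bcl10 (690), with an interval that included the 3.19% of all genes. A peak within 1 kb of a start site was present at 8 of these 36 genes, against 5.16% of all genes. By the wider rule that counted every gene with a start site at most 25 kb from a peak, T cell receptor signalling had 4 of 36. That was 11.1% (4.41 to 25.3), against 4.93% of all genes, which the interval also included. Survival genes had 2 of 19 (10.5%, 2.94 to 31.4), namely Fasl and Pim1 (836). Over the 9 lists of T cell function, 41 of 262 distinct genes (15.6%, 11.7 to 20.5) were a nearest gene. The lists share genes, were chosen with results of these data known and were not tested.

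Lists for processes in all cells and for other cells had intervals that included the share of all genes, 3.19%, when only nearest genes were counted. So did the Notch pathway, T cell receptor signalling and survival lists. Ribosomal protein genes had 2 of 40 (5%, 1.38 to 16.5), namely Rpl14 (669) and Rpl6 (612), and replication and cell cycle genes had 0 of 30 (upper limit 11.4%). Of markers of other cells that a thymus preparation could hold, alpha beta thymocytes had 2 of 18 (Tox and Cd69) and B cells 0 of 16. Myeloid cells had 1 of 19 (Cebpe, 856) and thymic stroma 2 of 19 (Krt14, 845, and Dll4). The shares of alpha beta thymocytes (11.1%, 3.1 to 32.8) and stroma (10.5%, 2.94 to 31.4) were near the 12.1% of Notch targets and the 12.5% of the interleukin-17 program. The lineage genes Cd4, Cd8a, Rag1, Bcl11b, Satb1 and Id3 were nearest to no intergenic peak, although a start site of Cd4 lay within 25 kb of a peak nearer to another gene. Of tissues not sampled, liver had 1 of 17 (G6pc, 1219) and neurons 1 of 17 (Nefm, 719). By the wider rule of any start site at most 25 kb away, myeloid cells had 4 of 19 (21.1%, 8.51 to 43.3) and alpha beta thymocytes 3 of 18 (16.7%, 5.84 to 39.2), both with intervals above the 4.93% of all genes. Their part in the results was not tested.

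**Figure D2:**
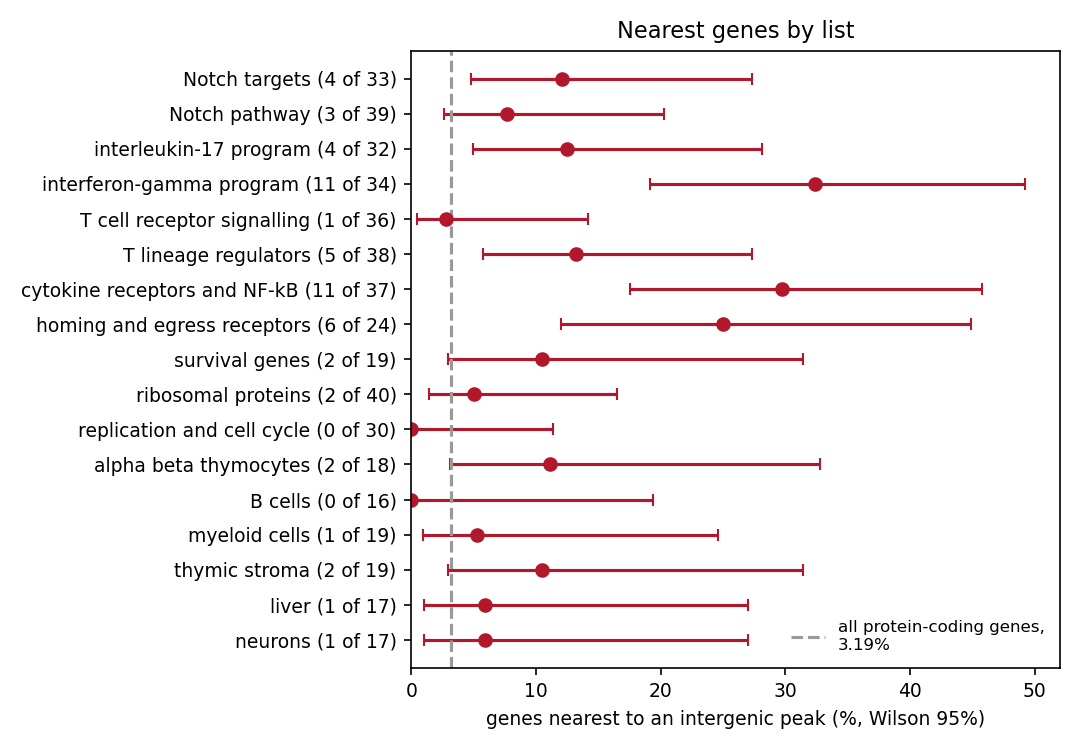
Share of the genes of each list that were the nearest protein-coding gene of an intergenic peak, in percent, with Wilson 95% intervals as bars, beside all protein-coding genes (dashed line, 3.19%). The interferon-gamma list stands at 32.4% and the cytokine and NF-kB list at 29.7%, and the B cell and replication lists stand at 0.

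The Trb locus, where T cells join the segments of the beta chain gene, held 7 nuclear peaks, and 4 of them met the intergenic rule because the segments are not annotated as protein-coding. The nearest protein-coding gene was Prss2, a trypsinogen gene that lies within the locus, at 13.6 to 22.7 kb. From low to high coordinate on chromosome 6 the 4 scored 643, 927, 648 and 656. The first covered the segments Trbj1-6 and Trbj1-7 and held 2 RBPJ cores. The second, printed above, lay 1.65 kb past Trbc1, a constant segment, and held 1 core. The next covered Trbj2-7 with 2 cores, and the last lay 1.87 kb before Trbc2 and held 0 cores and 1 RUNX motif. Gamma delta T cells do not use the beta chain in their receptor. Markers of alpha beta thymocytes are given above, and whether such cells contributed was not tested.

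The Tra and Trd locus and the Trg locus, the loci of the delta and gamma chains, held 2 and 1 nuclear peaks, and 0 of these met the rule. An intergenic peak beyond the Tra and Trd segments lay on chromosome 14 from 54231258 to 54231685, 7.05 kb past the constant segment Trac and 22.2 kb from the start of Dad1, which encodes a subunit of the oligosaccharyltransferase. It scored 1159 and held 1 RBPJ core and 1 RUNX motif.

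Intergenic peaks were about as dense as peaks elsewhere, and denser toward the starts. The sequence that could satisfy the rule covered 348 Mb, 13.1% of the nuclear genome without gaps, and held 2.28 peaks per Mb (exact Poisson 95% interval 2.13 to 2.45), against 2.22 (2.16 to 2.29) outside it. At 1 to 2.5 kb from a start there were 3.30 peaks per Mb (2.66 to 4.05, 92 peaks), and at 2.5 to 5 kb there were 2.79 (2.33 to 3.31, 131 peaks). At 10 to 15 kb there were 1.97 (1.66 to 2.32), and at 15 to 25 kb again 1.97 (1.72 to 2.24). Between the nearest and the farthest of these bins the intervals did not overlap.

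Of the intergenic peaks 583 (73.3%, 70.2 to 76.3) lay upstream of the nearest start, close to the 70.1% of qualifying sequence that is upstream. Downstream, where a gene has to be short to leave intergenic sequence close to its start, the density was 3.61 per Mb (2.52 to 5.02, 35 peaks) at 2.5 to 5 kb and 1.54 (1.09 to 2.10, 39 peaks) at 5 to 10 kb. Upstream it was 2.58 (2.09 to 3.15) and 2.71 (2.31 to 3.15) in the same bins. The median distance of all 795 was 9499 bp.

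**Figure D3:**
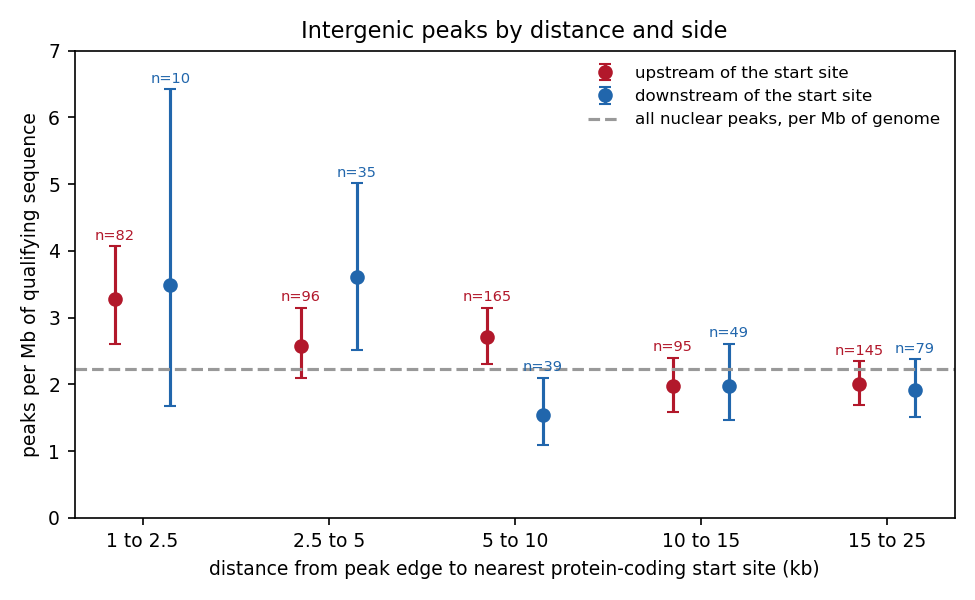
Intergenic peaks per Mb of qualifying sequence by distance from the nearest start site in kb, upstream (red) and downstream (blue), with exact Poisson 95% intervals as bars, the number of peaks above each and all nuclear peaks per Mb of genome as a dashed line. Upstream density is 3.28 per Mb at 1 to 2.5 kb and 2 at 15 to 25 kb.

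Scores of the intergenic peaks were like those of other peaks at the median and upper quartile, while scores over 1500 were more frequent. The upper quartile of nuclear scores held 25.5% of intergenic and 24.9% of other peaks, a difference of 0.608 points (-2.54 to 3.96). The median score was 714 (exact 95% interval 703 to 730) against 718 (712 to 724) for all other nuclear peaks, and 720 (701 to 735) for intergenic peaks at 25 to 100 kb. Scores over 1500 were held by 53 intergenic peaks, 6.67% (5.13 to 8.62), against 3.99% of other peaks, a difference of 2.68 percentage points (Newcombe 95% interval 1.04 to 4.69). Against intergenic peaks at 25 to 100 kb, with 4.17%, the difference was 2.50 points (0.196 to 4.81). Among peaks with less than 20% of bases masked and without any repeated 32-base string the shares were 4.75% of intergenic and 2.94% of other peaks, and the interval of the difference reached 0 (-0.0408 to 4.51). The limit of 1500 was chosen after the scores were seen.

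**Figure D4:**
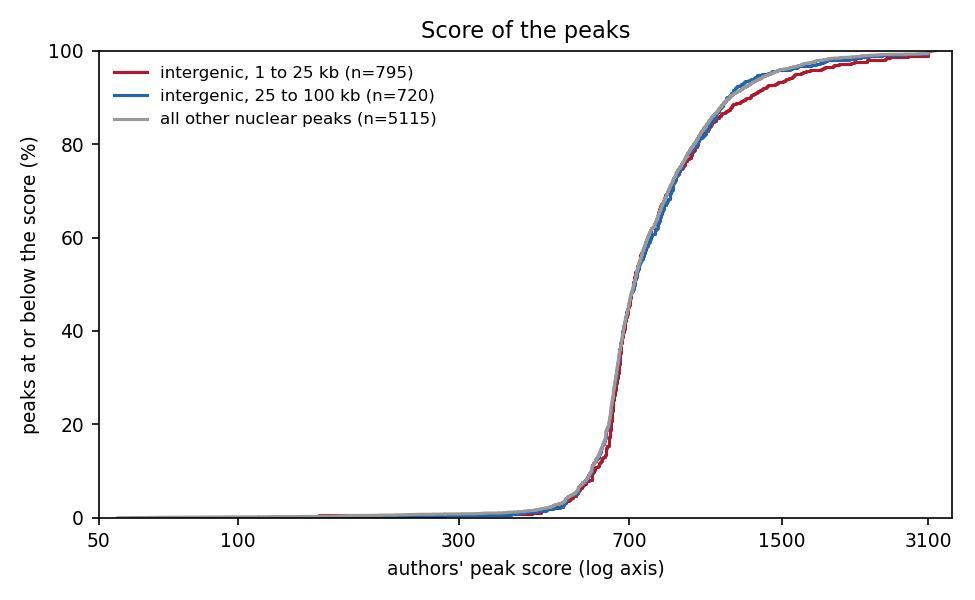
Cumulative share of peaks in percent (vertical axis) at or below each authors' score (horizontal axis, log scale) for intergenic peaks at 1 to 25 kb (red, n = 795), intergenic peaks at 25 to 100 kb (blue, n = 720) and all other nuclear peaks (grey, n = 5115). The curves run together up to about the median and the red curve is lowest at 1500, where 6.67% of its peaks are higher.

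The 53 peaks with scores over 1500 were narrow or wide. Of them 16 were narrower than 300 bp, with a median width of 168 bp, and 11 of those 16 (68.8%) held a repeated 32-base string. The RBPJ core was present in 3 of these narrow peaks (18.8%, 6.59 to 43.0). The other 37 had a median width of 692 bp, and 43.2% held a repeated string. The core was present in 19 of these (51.4%, 35.9 to 66.6), although a wide peak has more bases in which a core can fall. Over all 795 the median width was 377 bp, against 369 bp for other peaks.

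Intergenic peaks held less repeat sequence than their surroundings and more than all other peaks pooled. Over all their bases 23.2% were soft-masked, against 40.1% of the qualifying sequence. At least 50% of bases were masked in 94 peaks (11.8%, 9.76 to 14.3), against 8.93% of other peaks, a difference of 2.89 points (0.672 to 5.43). Against intergenic peaks at 25 to 100 kb, with 10.4%, the difference was 1.41 points and its interval included 0 (-1.79 to 4.57). A repeated 32-base string was present in 285 (35.8%), against 27.1% of other peaks, a difference of 8.77 points (5.29 to 12.4), and 30.7% of intergenic peaks at 25 to 100 kb, a difference of 5.15 points (0.399 to 9.86). The 94 mostly masked peaks had a median score of 767 (730 to 818), against 709 (698 to 720) for the remaining intergenic peaks, so repeat content moved with score. Its part in the scores was not tested. Median GC content was 45.3% in intergenic peaks, against 43.6% in other peaks and 52.5% in those within 1 kb of a start.

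Many peaks called intergenic by protein-coding genes overlapped other annotated genes. A noncoding gene or pseudogene was overlapped by 126 (15.8%, 13.5 to 18.6), against 10.6% of other peaks, a difference of 5.23 points (2.70 to 8.06). Intergenic peaks at 25 to 100 kb had 16.2%, and the difference from them was -0.401 points (-4.13 to 3.29). The overlapped genes were long intergenic RNAs for 64 peaks and antisense RNAs for 31. Within 1 kb of a noncoding start lay 71 peaks (8.93%), against 6.35% of other peaks. The Kmt2e peaks, nearest to a gene for a chromatin regulator of the MLL family, were examples, since those with scores of 2536, 2293 and 700 all overlapped 5031425E22Rik.

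Intergenic peaks more often had a neighbouring peak than all other peaks pooled. Another nuclear peak lay within 5 kb of 154 (19.4%), against 14.2% of other peaks, a difference of 5.18 points (2.40 to 8.22), and 11.5% of intergenic peaks at 25 to 100 kb, a difference of 7.84 points (4.21 to 11.4). The median gap to the next peak was 60964 bp (50227 to 70960), against 92454 bp for other peaks, 98834 bp for intergenic peaks at 25 to 100 kb and 50582 bp (44584 to 58093) for peaks within 1 kb of a start. For 114 intergenic peaks (14.3%, 12.1 to 16.9) the nearest gene also had a peak within 1 kb of a start. That compared with 10.4% of intergenic peaks at 25 to 100 kb, a difference of 3.92 points (0.590 to 7.22). Of all protein-coding genes 5.16% had such a peak. That is a share of genes and not of peaks, so it is not directly comparable, as a gene with several intergenic peaks counts once in it. Cxcr4, Cd69, Tcf3, Ifngr1 and Zfp36l1 were among genes with both.

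The RBPJ core was as frequent in intergenic peaks as in other peaks and in like sequence. Matches were counted on both strands, and TGGGAA was present in 240 of the 795 (30.2%, 27.1 to 33.5), against 29.4% of other peaks, a difference of 0.785 points (-2.55 to 4.29). In the central 200 bp it was present in 17.5% of intergenic peaks and in 16.9% of other peaks. Of 1719140 windows of 200 bp cut from the qualifying sequence 17.3% held it, or 17.8% when weighted to the GC content of the peaks. The longer site CGTGGGAA, which contains the core, was present in 2 intergenic peaks (0.252%), against 1.06% of other peaks. Its difference was -0.804 points (-1.17 to -0.099), and against intergenic peaks at 25 to 100 kb it was -0.721 points, with an interval that included 0 (-1.76 to 0.108). Notch complexes form dimers on a pair of cores facing each other with 15 to 19 bases between them. Such a pair was present in 0 of 795 intergenic peaks (upper limit 0.481%), against 2 of 5115 other peaks (0.0391%). The difference was -0.0391 points, with an interval that included 0 (-0.142 to 0.443). Intergenic peaks at 25 to 100 kb had 0 of 720.

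Peaks with the core did not have higher scores. The 240 with it had a median score of 690 (675 to 714) and a median width of 394 bp, against 725 (708 to 747) and 366 bp for the 555 without it. By distance, the core was present in 55 of 131 peaks at 2.5 to 5 kb (42.0%, 33.9 to 50.5) and in 26.4 to 30.4% of each other bin. Of 89 peaks with the RUNX motif 38 (42.7%, 32.9 to 53.1) also held the core, against 28.6% of peaks without the motif. The peaks with the motif were wider, at a median of 409 bp against 374 bp. The 61 peaks beside genes of the T cell lists, which lay at 41 genes, held the core in 25 cases (41.0%, 29.5 to 53.5). That interval included the 30.2% of all 795 intergenic peaks. These subsets were not tested.

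All 16 strings were searched on both strands, and few differed between intergenic and other peaks. RUNX (TGTGGTT) was present in 11.2% against 9.85%, a difference of 1.34 points (-0.838 to 3.85), and in the central 200 bp in 6.79% against 5.40% and 5.02% of GC-weighted windows. STAT (TTCNNNGAA) was present in 14.2% against 11.0%, a difference of 3.21 points (0.783 to 5.94). In the central 200 bp, STAT stood at 7.80% in intergenic peaks, against 6.04% in other peaks and 6.56% of weighted windows. The reversed core AAGGGT, included as a control, differed as much, with 18.7% against 15.4%, a difference of 3.30 points (0.543 to 6.32). ETS (CCGGAAG) was lower in intergenic peaks, with 2.14% against 3.68%, a difference of -1.54 points (-2.51 to -0.189), and so was AGATAA, the string of GATA factors, with 17.7% against 21.2%, a difference of -3.46 points (-6.20 to -0.441). Against intergenic peaks at 25 to 100 kb, ETS differed by -0.223 points (-1.82 to 1.31) and the reversed core by 2.77 points (-1.07 to 6.57), intervals that included 0. STAT differed from that class by 4.35 points (1.06 to 7.61) and AGATAA by -6.01 points (-10.1 to -1.93).

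The remaining strings had intervals of the difference from all other peaks pooled that included 0. They were AP-1 (TGACTCA) at 6.79% of intergenic against 6.57% of other peaks, the E-box of E proteins (CAGCTG) at 17.2% against 15.3% and the E-box of HES and MYC proteins (CACGTG) at 6.04% against 5.55%. TCF and LEF (CTTTGAA) stood at 10.8% against 9.72%, SP and KLF (GGGCGG) at 9.56% against 11.6% and IRF at 5.28% against 5.2%. The ROR element (TAGGTCA) stood at 4.28% against 4.13%, the CTCF core at 1.26% against 0.684% and NF-kB at 0.377% against 0.411%. Several of these strings share letters, as CGTGGGAA does with TGGGAA, and no correction was made for the 16 looked at. In the central 200 bp, the reversed core was the 1 string of the 16 whose interval of the difference from other peaks lay above 0, and for 0 strings it lay below. The central 200 bp of intergenic peaks held CAGCTG in 10.6% (8.62 to 12.9), against 8.99% of other peaks and 8.86% of GC-weighted windows. SP and KLF stood there at 5.79% (4.37 to 7.63), against 7.68% of other peaks and 3.33% of weighted windows. The reversed core, the control, also exceeded its weighted windows, with 11.7% (9.65 to 14.1) against 9.21%.

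**Figure D5:**
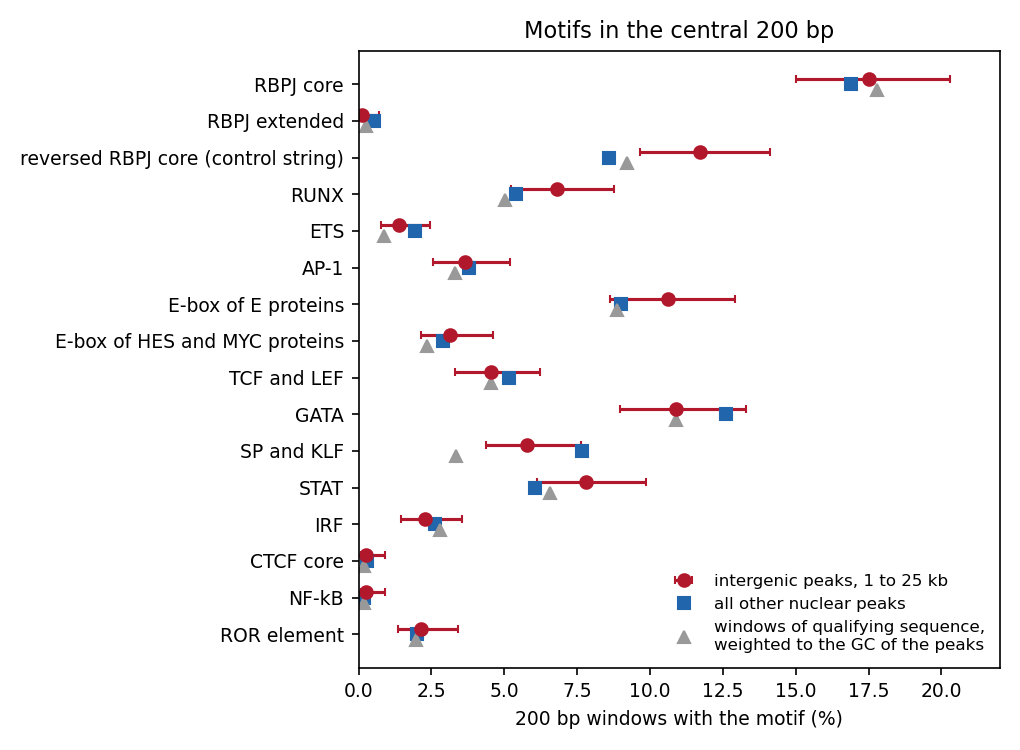
Share of 200 bp windows with each motif, in percent, for the centre of intergenic peaks (red, with Wilson 95% intervals as bars), the centre of all other nuclear peaks (blue) and windows of qualifying sequence weighted to the GC content of the intergenic peaks (grey). The RBPJ core stands at 17.5, 16.9 and 17.8%, and RUNX at 6.79, 5.40 and 5.02%.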

How the data were processed

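The ChIP library and the input library are both labelled as gamma delta T cells. Formaldehyde fixation, sonication, enzymatic digestion and PCR amplification of the libraries are given per the labels' protocols, without mention of molecular identifiers. Reads were processed with Bowtie 1.0.0, SAMtools 0.1.18 and build mm10, per the submitters' processing notes. The deposited list gives for each of 5913 peaks its position, a MACS-style name and a score from the authors' peak caller. Not given in the sources used here are the MACS version and settings, the use of the input, the treatment of duplicate and repeated reads and the scale of the score. Duplicate reads and repeated sequence can raise such scores, and a peak list measures neither.

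The 3 mitochondrial peaks were set aside. Distances ran from the peak edge to the nearest start site of any transcript of a protein-coding gene of GENCODE M21, and 0 peaks passed a chromosome end of GRCm38. Sequence and soft-masking came from the RefSeq copy of GRCm38. Motifs were matched exactly on both strands, and windows of 200 bp were weighted in GC bins of 5 points. Shares have Wilson intervals, medians exact binomial ones, densities exact Poisson ones and differences of shares Newcombe ones, at 95%. No p-values were computed, since 1 ChIP library allows no test between conditions. Scripts were tested on simulated data (Python 3.11.15, numpy 2.4.6, pandas 2.3.3, scipy 1.17.1, matplotlib 3.10.9).

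The regions and the 17 gene lists, with 468 of 471 entries matched, were chosen with earlier results of these data known. Genes were named by rule: the 12 peaks of highest score, up to 4 peaks by score from each list, a set of fixed genes (1 is not reported here), the antigen receptor loci and the peaks at the distance limits. Genes with several peaks, further list members and overlapped noncoding genes were named after their values were seen. Alternatives changed the start sites, the distance measure and limit, the overlap, the gene bodies, the score threshold, the repeat content and the stretch scanned.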

Additional observations from a re-analysis of the deposited data

How the results depend on the processing

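Of 87 alternatives to the main values, 71 moved the value by less than its interval, or a count by less than 1.5 times. The values were counts, medians, shares and densities, which have no sign, so none could be reversed. Differences from other peaks were not among them. A limit of 10 kb gave 427 peaks in place of 795, 80.3% upstream in place of 73.3%, 17.1% with a promoter peak at the nearest gene in place of 14.3%, and 2.65 peaks per Mb in place of 2.28. Little repeat sequence (under 20% soft-masked, no repeated 32-base string) left 379 peaks and 24 of the 262 T cell list genes in place of 41. Start sites of coding transcripts gave 79.1% upstream, and peak midpoints gave 17.3% with a promoter peak at the nearest gene. At or above the median score the mostly masked share was 14.8% in place of 11.8%, the RBPJ core share 26.0% in place of 30.2%, and list genes numbered 23. In the upper quartile the promoter peak share was 18.2% and the RUNX share 15.8% in place of 11.2%. In the central 200 bp the shares were 17.5% for the RBPJ core, 6.79% for RUNX and 0.252% for the CTCF core in place of 1.26%, as fewer bases were scanned. At or above the median score the interferon-gamma list had 6 genes and the cytokine list 5, each in place of 11, and with little repeat sequence both had 7. Notch targets had 0 and 1 in place of 4, interleukin-17 genes 2 and 2 in place of 4, homing receptors 3 and 3 in place of 6, and T lineage regulators 3 and 4 in place of 5. These 2 filters kept 393 and 379 of the 795 peaks, so fewer genes of any kind could be a nearest gene. The share of all genes under each filter was not computed, so the lower counts cannot show a loss particular to a list. Joining peaks up to 1 kb apart, chosen after seeing the data, gave 749 regions. The causes of the other movements were not tested. No paired analysis was possible because each group has 1 library, and none could be left out. Depth is unknown and limits what absence of a peak can show.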

Other observations

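Intergenic peaks were unevenly spread over chromosomes. On the X chromosome there were 13, or 0.588 per Mb of qualifying sequence (exact Poisson 95% interval 0.313 to 1.01), against 2.28 per Mb over all qualifying sequence. The chromosome held few peaks of any class, 98 in all, and the intergenic ones were 13.3% of them, against 13.5% over the genome. On the Y chromosome there was 1. Among autosomes the density ran between 1.5 per Mb on chromosome 14 (0.949 to 2.25) and 3.8 on chromosome 12 (2.75 to 5.11). The labels do not give the sex of the animals.

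Only 5 intergenic peaks scored under 300. They lay nearest to Mroh2a (237 and 139), P4ha2 (150), Ccl28 (147) and Tmem267, and a further peak at Mroh2a scored 313. Tmem267 had the lowest score of all, 85.6, in a peak with the longer RBPJ site CGTGGGAA and 1 RUNX motif. The second peak with that site lay 16.1 kb upstream of Cyp3a57 and scored 648.

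Scores were not spread evenly. Of the 795 intergenic peaks 372 scored between 600 and 750, and 540 shared their score exactly with another nuclear peak.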
